A study of Mus musculus with 11 samples.

Results

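Resident macrophages are the principal immune cells of the cochlea, and the 9 genes described here are those commonly used to find them and to follow the complement protein they secrete. They were taken by name: the 3 chains of C1q (*C1qa*, *C1qb* and *C1qc*), the receptors *Csf1r* and *Cx3cr1*, the cell markers *Adgre1* and *Aif1*, and the receptor and adaptor pair *Trem2* and *Tyrobp*. They are 9 of the 18667 genes listed in the expression tables, and the rule that picks them uses no measured value, although earlier results of these data were known when it was made. Each was measured by RNA sequencing of whole cochleae from mice of 2 months, with 5 libraries of Atf6+/+ mice and 6 libraries of Atf6-/- littermates, each library made from 1 cochlea. Both genotypes carried the same C57BL/6J background, a strain that loses hearing early with age, and both sexes were used. ATF6 is a sensor of misfolded protein in the endoplasmic reticulum that is cut and sent to the nucleus to switch on chaperone genes. The deletion was present in every cell of the animal, so it was not limited to macrophages or to the inner ear. The question the comparison addresses here is whether the RNA of cochlear macrophages and of the complement system differed between the genotypes.

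Macrophages of the cochlea lie in the spiral ligament, the stria vascularis along its vessels, and among the fibres and cell bodies of the spiral ganglion, and they depend on signalling through CSF1R. C1q opens the classical pathway of complement: it binds immune complexes or tagged surfaces, the proteases C1r and C1s cut C4 and C2, and C3 is then deposited. In the nervous system the same molecule is known for tagging synapses and debris that phagocytes remove. TREM2 senses lipids and apolipoproteins at the surface of macrophages, microglia and osteoclasts, and signals through TYROBP, an adaptor that many other myeloid and natural killer receptors share.

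Values are fragments per kilobase of transcript, scaled to the mapped fragments of a library (FPKM), so that levels can be set beside one another. Summed FPKM ran from 474616 to 537926 in the Atf6+/+ libraries and from 462005 to 502419 in the Atf6-/- libraries, and the number of fragments behind each value is not given, the study stating only a common nominal depth. Between 15733 and 16204 genes reached 0.1 FPKM in a library, the lowest number being in Atf6-/- replicate 5. *Atf6* itself was at 9.52 ± 1.11 FPKM (SD, n = 5) in Atf6+/+ and 4.26 ± 0.285 (SD, n = 6) in Atf6-/-, with no overlap (log2 fold change -1.13, SE 0.0837, limma adjusted p = 5.17e-05). Genes of the cochlea were present in every library, at a sum of 2220 to 3250 FPKM in Atf6+/+ and 2680 to 4200 in Atf6-/-. Of 11 such genes 10 had a fitted value that was higher in Atf6-/-, or 9 by mean FPKM, with a median log2 fold change of 0.25, and *Slc26a5* (1.2), *Ocm* (1.16) and *Coch* (0.33) were called higher by the unadjusted rule given below, opposite in sign to most of the members, but not with the marrow score described below as a covariate. *Kcne1*, a potassium channel subunit of the stria vascularis, was at only 0.10 FPKM in Atf6+/+ replicate 4. A whole cochlea includes bone with marrow, and markers of marrow cells differed between libraries (values below). In such bulk samples fewer macrophages and less RNA per macrophage cannot be told apart.

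No member differed between the genotypes after adjustment over the 16169 genes tested. Of the 9 members, 0 had a Benjamini-Hochberg adjusted p under 0.05 in limma, against 11 genes (0.0680%) of all those tested. By a looser rule, an unadjusted p of at most 0.05 with a log2 fold change beyond 0.05, thresholds taken from the study but applied here to limma on log2 FPKM in place of the study's DESeq2, 1 of 9 members was called, *Tyrobp*, which was lower in Atf6-/-. That rule called 1592 genes (9.85%) in either direction, 868 (5.37%) lower and 724 (4.48%) higher. The balance of directions depended on the scaling, with 762 lower and 874 higher by median-of-ratios and 460 lower and 1396 higher after rescaling to TPM. A share of 1 in 9 members in either direction is close to the share over all genes. The fitted value was lower in Atf6-/- for 8 members and higher for 1, also after rescaling to TPM or by median-of-ratios, and their median log2 fold change was -0.20, against -0.01 over all genes tested. The genotypes overlapped for every member, whereas 202 genes (1.25%) of all those tested had no overlap.

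**Figure D1:**
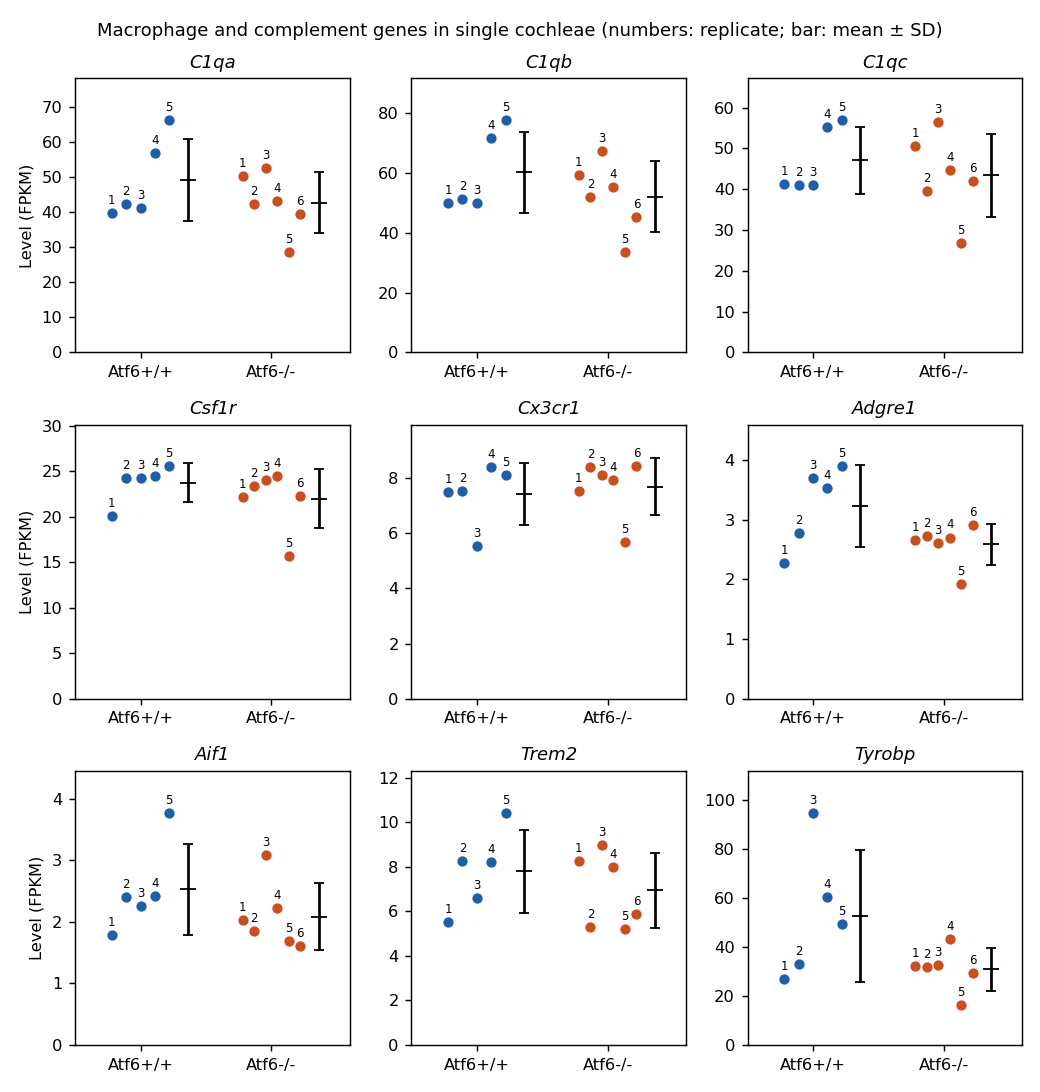
FPKM of each of the 9 genes in every library, with 1 panel per gene and its own linear axis starting at 0. Points are the 5 Atf6+/+ and 6 Atf6-/- libraries, and bars are the group mean with the SD. The groups overlap in all panels, and the *Tyrobp* panel has the widest spread, from 16.2 to 94.8 FPKM.

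Levels differed widely between the members. Over all 11 libraries, *C1qb* had the highest mean at 55.8 FPKM, followed by *C1qa* at 45.7, *C1qc* at 45.1, *Tyrobp* at 40.9, *Csf1r* at 22.8, *Cx3cr1* at 7.56, *Trem2* at 7.33, *Adgre1* at 2.88 and *Aif1* at 2.28. Some neighbours in that order were not separated, because their order turned between libraries: *C1qa* and *C1qc*, *C1qc* and *Tyrobp*, *Cx3cr1* and *Trem2*, and *Adgre1* and *Aif1*. *C1qb* was above *C1qa*, *Tyrobp* above *Csf1r*, and *Csf1r* above *Cx3cr1* in all 11 libraries. The spread between libraries was smallest for *Csf1r*, with a coefficient of variation of 12.3%, and *Cx3cr1*, with 13.6%. It was at most 28.5% for the C1q chains, *Adgre1*, *Trem2* and *Aif1*, and 52.4% for *Tyrobp*.

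The 3 C1q chains assemble in equal numbers into 1 protein, and their genes lie side by side on mouse chromosome 4. *C1qa*, the A chain (NCBI gene 12259), was at 39.71, 42.24, 41.13, 56.87 and 66.2 FPKM in Atf6+/+ replicates 1 to 5, and in Atf6-/- its lowest, median and highest values were 28.59, 42.69 and 52.7. Atf6+/+ replicates 4 and 5 stood above every Atf6-/- library, and the other Atf6+/+ libraries lay inside the Atf6-/- range. The means were 49.2 ± 11.7 (SD, n = 5) and 42.7 ± 8.59 (SD, n = 6), a log2 fold change of -0.20 (95% confidence interval -0.57 to 0.17, limma adjusted p = 0.694).

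*C1qb*, the B chain (NCBI gene 12260), was at 49.94, 51.42, 50.06, 71.77 and 77.58 FPKM in Atf6+/+ and at 33.57, 53.59 and 67.34 as the lowest, median and highest of Atf6-/-. The log2 fold change was -0.21 (-0.60 to 0.17, limma adjusted p = 0.685), with the same 2 Atf6+/+ libraries on top as for *C1qa*. *C1qc*, the C chain (NCBI gene 12262), was at 41.27, 41.08, 41.11, 55.11 and 56.89 FPKM in Atf6+/+ and at 26.91, 43.41 and 56.37 in Atf6-/-. Its log2 fold change was -0.14 (-0.50 to 0.23, limma adjusted p = 0.796). The intervals of all 3 chains begin at -0.50 or below and end above 0, so a lower level of that size in Atf6-/- is not excluded by these libraries.

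The C1q promoters are shown because the 3 chains moved together from library to library. Below are the 250 bases upstream of the RefSeq start of *C1qb* (GRCm38.p6, chr4:136886201-136886450, minus strand) and *C1qc* (chr4:136892915-136893164, minus strand), printed 5′ to 3′ on the gene's strand. Capitals mark GAGGAA, a core sequence bound by PU.1, the macrophage lineage factor encoded by *Spi1*, or its reverse complement TTCCTC.
C1qb: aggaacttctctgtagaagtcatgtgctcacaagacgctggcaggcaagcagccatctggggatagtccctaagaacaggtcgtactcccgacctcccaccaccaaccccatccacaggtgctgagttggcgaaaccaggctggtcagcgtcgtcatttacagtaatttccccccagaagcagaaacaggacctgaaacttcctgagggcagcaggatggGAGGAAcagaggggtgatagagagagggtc
C1qc: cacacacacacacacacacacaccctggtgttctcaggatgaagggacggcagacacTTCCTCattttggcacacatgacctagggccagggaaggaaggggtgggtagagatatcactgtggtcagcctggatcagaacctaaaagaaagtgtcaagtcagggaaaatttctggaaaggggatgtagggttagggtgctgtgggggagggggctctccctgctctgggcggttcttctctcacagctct

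The match in *C1qb* starts 30 bases before the transcription start on the gene's strand, and the match in *C1qc* starts 193 bases before it on the opposite strand. Of the 9 members, 5 were in the RefSeq promoter table used, and 4 of the 5 (*C1qb*, *C1qc*, *Aif1* and *Trem2*) held GAGGAA on either strand. *Cx3cr1* held no match. The same 6 letters occur in 7639 of the 32851 promoter windows of that length (23.3%), and a match is a description of the letters only.

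The ratio between the C1q chains barely varied. *C1qb* over *C1qa* was 1.23 ± 0.0367 (SD, n = 5) in Atf6+/+ and 1.21 ± 0.0582 (SD, n = 6) in Atf6-/-, with a coefficient of variation of 3.90% over the 11 libraries and an exact two-sided permutation p of 0.684. The ratio of *C1qc* to *C1qa* was 0.968 ± 0.0669 and 1.01 ± 0.0598 (exact permutation p = 0.312), and that of *C1qc* to *C1qb* was 0.790 ± 0.0390 and 0.833 ± 0.0577 (exact permutation p = 0.188). The single chains varied by up to 22.6% between libraries, and their ratios by 3.90 to 6.49%. These are 3 of 12 ratios between members that were tested, and their p-values are not adjusted.

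*Csf1r*, the receptor that keeps macrophages alive (NCBI gene 12978), was at 20.03, 24.27, 24.28, 24.48 and 25.51 FPKM in Atf6+/+ replicates 1 to 5. In Atf6-/- the lowest, median and highest values were 15.66, 22.77 and 24.48. In each genotype 1 library stood below the rest, Atf6+/+ replicate 1 and Atf6-/- replicate 5, and the others were within a few FPKM of each other. The log2 fold change was -0.12 (95% confidence interval -0.35 to 0.12, limma adjusted p = 0.713), and this was the narrowest interval of the 9.

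*Cx3cr1*, the receptor for the neuronal chemokine fractalkine (NCBI gene 13051), was the 1 member whose fitted value was higher in Atf6-/-. It was at 7.51, 7.54, 5.52, 8.4 and 8.11 FPKM in Atf6+/+ and at 5.67, 8.02 and 8.42 as the lowest, median and highest in Atf6-/-. The log2 fold change was 0.05 (-0.22 to 0.32, limma adjusted p = 0.906). It was 0.14 without Atf6-/- replicate 5, -0.05 without Atf6+/+ replicate 3, the lowest library of all 11 for this gene, and -0.01 with the marrow score described below as a covariate, so no direction can be read.

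The markers *Adgre1* and *Aif1* were the least abundant members. *Adgre1*, which encodes a surface receptor widely used as a macrophage antigen in the mouse (NCBI gene 13733), was at 2.27, 2.77, 3.7, 3.53 and 3.89 FPKM in Atf6+/+ and at 1.92, 2.68 and 2.91 in Atf6-/-. Atf6+/+ replicates 3 to 5 lay above every Atf6-/- library, and replicates 1 and 2 did not. The means were 3.23 ± 0.686 (SD, n = 5) and 2.58 ± 0.342 (SD, n = 6), a log2 fold change of -0.30 (-0.62 to 0.03, limma unadjusted p = 0.0695, adjusted p = 0.522). Without Atf6+/+ replicate 1 the log2 fold change was -0.41 and the unadjusted limma p was 0.00929, and with the marrow score as a covariate they were -0.11 and 0.559. *Aif1*, which encodes the cytoskeletal protein IBA1 (NCBI gene 11629), was at 1.78, 2.4, 2.26, 2.42 and 3.77 FPKM in Atf6+/+ and at 1.6, 1.935 and 3.09 in Atf6-/-, and the ranges overlapped, with only the highest Atf6+/+ library above every Atf6-/- library. Its log2 fold change was -0.26 (-0.68 to 0.16, limma adjusted p = 0.648).

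*Trem2* (NCBI gene 83433) was at 5.53, 8.25, 6.58, 8.2 and 10.43 FPKM in Atf6+/+ and at 5.21, 6.93 and 8.98 in Atf6-/-, a log2 fold change of -0.17 (-0.57 to 0.23, limma adjusted p = 0.768). Only Atf6+/+ replicate 5 lay above the Atf6-/- range.

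*Tyrobp*, the signalling adaptor (NCBI gene 22177), had the widest spread of the members. It was at 26.87, 32.84, 94.79, 60.24 and 49.16 FPKM in Atf6+/+ replicates 1 to 5, and at 16.16, 32.06 and 43.32 as the lowest, median and highest in Atf6-/-. Atf6+/+ replicates 3, 4 and 5 were above every Atf6-/- library, and replicate 3 was the highest of all. The means were 52.8 ± 26.9 (SD, n = 5) and 30.9 ± 8.71 (SD, n = 6). The log2 fold change was -0.68 (SE 0.309, 95% confidence interval -1.35 to -0.01), with a limma unadjusted p of 0.0470, an adjusted p of 0.505 and an exact two-sided permutation p of 0.0909. With 1 library left out at a time the unadjusted limma p ranged from 0.0111 to 0.133 and was at most 0.05 in 3 of 11 cases, those without Atf6+/+ replicate 1, Atf6+/+ replicate 2 or Atf6-/- replicate 4. Without Atf6+/+ replicate 3 the log2 fold change was -0.44, and without that library and Atf6-/- replicate 5 it was -0.26.

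**Figure D2:**
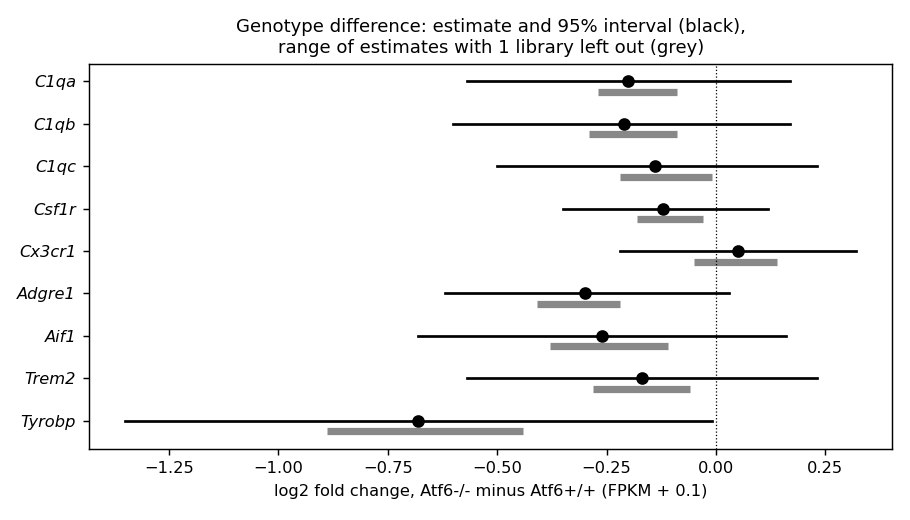
Log2 fold change of Atf6-/- over Atf6+/+ for the 9 genes (limma on log2 of FPKM + 0.1), with points for the estimate and black bars for the 95% confidence interval. Grey bars are the range of estimates with 1 library left out, from -0.89 to -0.44 for *Tyrobp*. The intervals of the other members include 0, and that of *Tyrobp* ends at -0.01, with an adjusted p of 0.505.

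Set against *Csf1r* in the same library, *Tyrobp* had the largest difference among the 8 other members, and it did not pass the test. The ratio *Tyrobp* over *Csf1r* was 1.34, 1.35, 3.9, 2.46 and 1.93 in Atf6+/+ and 1.03, 1.36 and 1.77 as the lowest, median and highest in Atf6-/-. The mean log2 difference was -0.56 (exact permutation p = 0.0714), and -0.33 without Atf6+/+ replicate 3 (exact permutation p = 0.181). The ratio *Tyrobp* over *Trem2* was 7.06 ± 4.30 (SD, n = 5) and 4.51 ± 1.14 (SD, n = 6), with an exact permutation p of 0.169. For the other members over *Csf1r* the exact permutation p ran from 0.104 for *Adgre1*, at 0.135 ± 0.0200 and 0.118 ± 0.00834, to 0.887 for *C1qc*. *C1qa* over *Csf1r* was 2.07 ± 0.386 in Atf6+/+ and 1.94 ± 0.230 in Atf6-/- (exact permutation p = 0.554), and *Cx3cr1* over *Csf1r* was 0.315 ± 0.0550 and 0.351 ± 0.0200 (exact permutation p = 0.143). The smallest p that 5 against 6 libraries allow is 0.00216.

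Single libraries held much of the spread. Atf6-/- replicate 5 was the lowest of all 11 libraries for 7 of the 9 members and below the Atf6+/+ mean for 9 of 9, by 0.73 log2 units on average. Atf6+/+ replicate 5 was the highest for 7 of 9. Summed FPKM ran the same way, lowest of all libraries in Atf6-/- replicate 5 (462005) and highest in Atf6+/+ replicate 5 (537926). The part of this scale in the extremes was not tested. Atf6+/+ replicate 3 was lowest for *Cx3cr1* and highest for *Tyrobp*, and Atf6-/- replicate 6 was lowest for *Aif1* and highest for *Cx3cr1*. The labels name no batch that separates these libraries.

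Many members varied together across the 11 libraries. Of the 36 pairs, 19 had a Pearson correlation of log2 FPKM with an adjusted permutation p under 0.05, and r ran from -0.04 to 0.99 with a median of 0.675. After the genotype means were subtracted the median was 0.68. *C1qa* and *C1qb* were almost collinear (r = 0.99, permutation p = 1e-05, the smallest that the permutations can give, adjusted p = 0.00036). Their Spearman rho was 1.0, and r was 0.97 without the 2 libraries farthest from the median of *C1qa*. *C1qa* and *C1qc* had r = 0.96 (adjusted permutation p = 0.00045) and rho = 0.81 (adjusted permutation p = 0.0149), and r was 0.94 without the 2 farthest libraries. *Aif1* and *Trem2* followed with r = 0.88 (adjusted permutation p = 0.00045) and rho = 0.83 (adjusted permutation p = 0.0149), and r was 0.82 without the 2 farthest libraries. Some relations rested on the extremes: *C1qa* and *Csf1r* had r = 0.78 over 11 libraries (adjusted permutation p = 0.00958) and 0.38 without the 2 farthest.

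*Tyrobp* took part in 2 of the 19 pairs past the Pearson threshold, out of the 8 pairs it can form, and 17 of the 28 pairs among the other members passed. By rank it also varied with *Aif1* (rho = 0.78, adjusted permutation p = 0.019, with r = 0.47, or 0.70 without the 2 farthest libraries). Its Pearson partners were *Adgre1*, with r = 0.88 (adjusted permutation p = 0.00288), rho = 0.75 (adjusted permutation p = 0.026) and r = 0.89 without the 2 farthest libraries, and *Csf1r*, with r = 0.75 (adjusted permutation p = 0.0223), rho = 0.90 (adjusted permutation p = 0.00468) and r = 0.55 without them. With *C1qa* its r was 0.54 (adjusted permutation p = 0.108) over 11 libraries and 0.17 without the 2 farthest. With *Cx3cr1* its r was -0.04 over all 11 libraries (permutation p = 0.906), 0.84 within the 6 Atf6-/- libraries and -0.56 within the 5 Atf6+/+ libraries. All of these points share their libraries, and Atf6-/- replicate 5, below the Atf6+/+ mean for every member, enters each r.

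**Figure D3:**
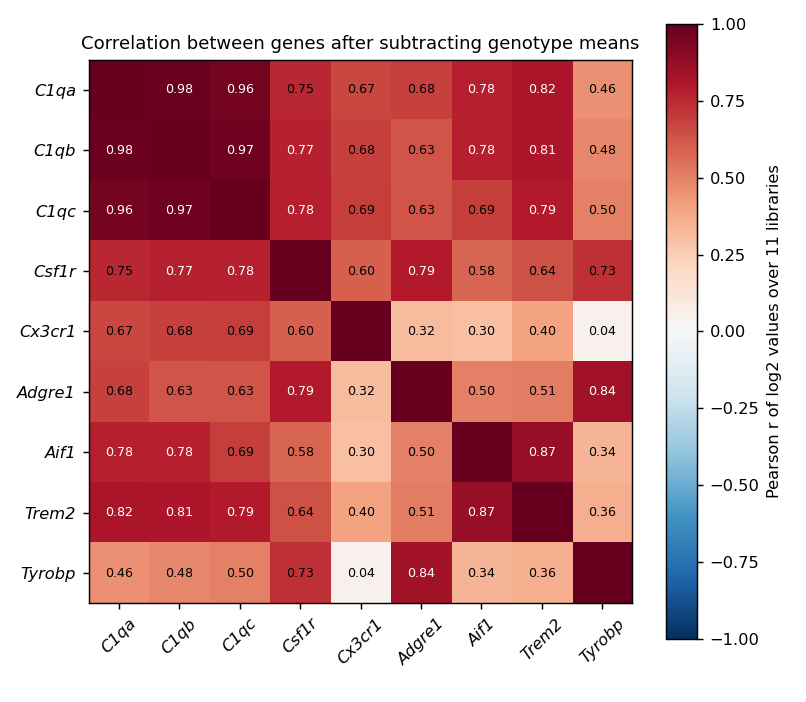
Pearson r between the 9 genes (log2 FPKM, 11 libraries) after subtracting the genotype means, as a grid with 1 cell per pair. The r is printed in each cell, and the colour scale runs from -1 to 1. The C1q block holds values of 0.96 to 0.98, and the pair of *Tyrobp* and *Cx3cr1* is at 0.04.

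*Tyrobp* is also made by osteoclasts, granulocytes and natural killer cells, so markers of other cell types that a cochlea with its bone could hold were measured beside it. The 9 granulocyte genes (such as *S100a8*, *S100a9* and *Ngp*) summed to 258, 565 and 3190 FPKM as the lowest, median and highest Atf6+/+ library and to 92.7, 264 and 1200 in Atf6-/-. At the unadjusted rule 5 of these 9 (*S100a8*, *S100a9*, *Ltf*, *Retnlg* and *Ly6g*) were lower in Atf6-/-, with a median log2 fold change of -1.55 over the 9. Of 8 erythroid genes 6 (among them *Hba-a1*, *Hba-a2*, *Hbb-bs*, *Hbb-bt* and *Alas2*, the globin pairs being near copies that can share reads) were lower by the same rule, with a median of -1.54 and sums of 4830 to 46400 FPKM in Atf6+/+ and 2870 to 9380 in Atf6-/-. Among B lineage genes 3 of 7 (among them *Cd79a* and *Ms4a1*) were lower with a median of -0.82, and their sums were 9.06 to 33.5 and 7.19 to 14.0 FPKM. Monocyte genes summed to 17.6 to 163 and 5.29 to 109 FPKM, with 0 called and a median of -0.95, and *Ly6c2*, not part of the marrow score described below, was called higher at 1.27 with that score as a covariate. Among the T and natural killer cell genes 2 of the 5 tested were lower, *Cd3g* (-0.88) and *Cd4* (-0.53). Neither was called with the replicate block or the marrow score, although with the score they were at -0.97 and -0.66. The T and natural killer cell genes summed to 3.15 to 10.7 and 1.52 to 6.85 FPKM. Osteoclast genes summed to 15.4, 90.2 and 151 FPKM in Atf6+/+ and to 16.4, 30.8 and 57.9 in Atf6-/-, with 1 of the 7 tested called (*Mmp9*, lower) and *Ocstamp*, *Dcstamp* and *Calcr* listed at 0 in some libraries. No gene of these lists passed the adjusted threshold.

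With the mean log2 level of the granulocyte genes r was -0.0, 0.07 and 0.04 for *C1qa*, *C1qb* and *C1qc*, or 0.26, 0.32 and 0.33 without the 2 farthest libraries. With the osteoclast genes it was 0.61, 0.62 and 0.54, or 0.73, 0.77 and 0.67 without the 2 farthest libraries. Over 11 libraries *Tyrobp* and the mean of the osteoclast genes had r = 0.89 (permutation p = 8e-05, adjusted over 36 relations p = 0.00288), rho = 0.85 (adjusted permutation p = 0.076), and r = 0.83 without the 2 farthest libraries. After the genotype means were subtracted r was 0.88. With the granulocyte genes *Tyrobp* had r = 0.76 (permutation p = 0.00751, adjusted p = 0.0901), rho = 0.58 (adjusted permutation p = 0.286) and r = 0.68 without the 2 farthest libraries. The B lineage genes had r = 0.72 with *Tyrobp* (permutation p = 0.0123, adjusted p = 0.111), rho = 0.39, and r = 0.12 without the 2 farthest. With *Adgre1* their r was 0.69 (permutation p = 0.0205, adjusted p = 0.148), and 0.44 without the 2 farthest. *Adgre1* and the osteoclast genes had r = 0.83 (adjusted permutation p = 0.0268), rho = 0.68 (adjusted permutation p = 0.208) and r = 0.67 without the 2 farthest. For *C1qa* the adjusted permutation p was 0.195 with the osteoclast genes, and the unadjusted permutation p was 0.998 with the granulocyte genes. Of the 36 relations between a member and such a list, 2 had an adjusted Pearson p under 0.05.

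A marrow score, the mean log2 level of the granulocyte, erythroid and B lineage genes, was 3.82, 3.30, 5.50, 4.63 and 4.03 in Atf6+/+ replicates 1 to 5 and 1.81, 3.25, 2.81, 3.68, 2.91 and 3.77 in Atf6-/- replicates 1 to 6. The highest score was in Atf6+/+ replicate 3, which also had the highest *Tyrobp*. With the score as a covariate the log2 fold change of *Tyrobp* was -0.12, the median of the 9 members was -0.19, and 0 members were called by the unadjusted rule. The score itself was lower in Atf6-/- and so shares the direction of the genotype, and score and genotype cannot be fully told apart in this fit. The part of these other cells in the difference of *Tyrobp* was not tested.

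**Figure D4:**
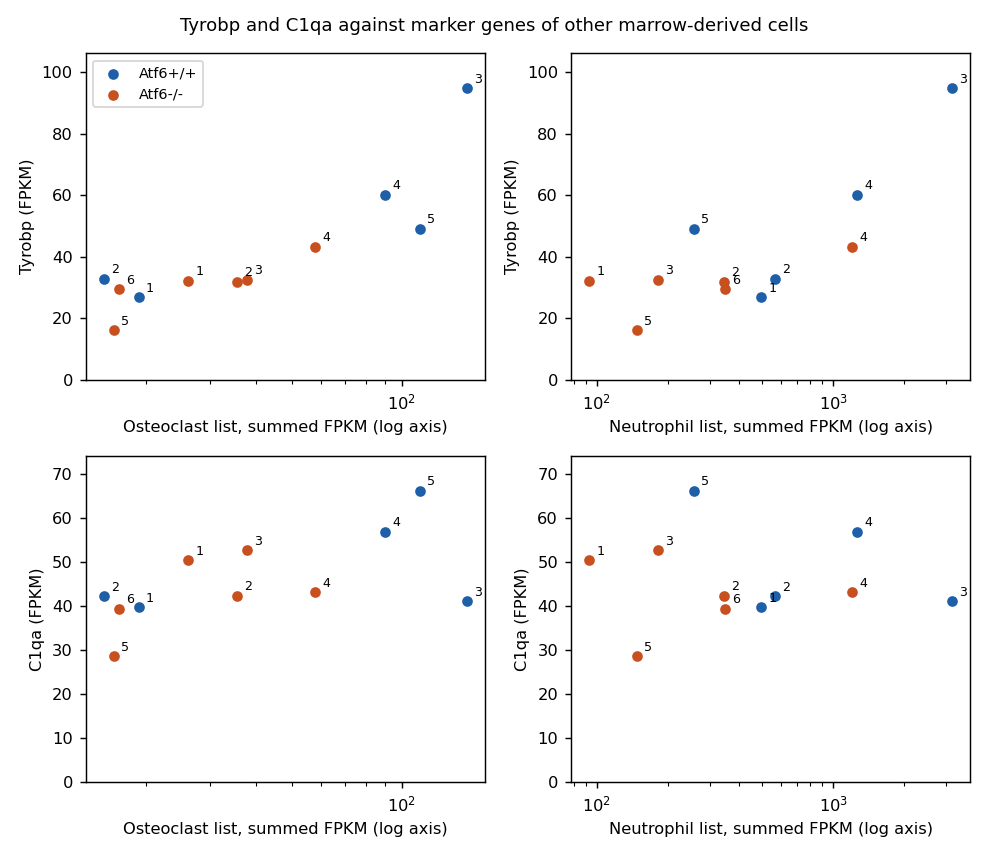
*Tyrobp* and *C1qa* (FPKM, vertical axes) against the summed FPKM of granulocyte and of osteoclast genes (horizontal log axes), 1 point per library, coloured by genotype. *Tyrobp* is highest at 94.8 FPKM in Atf6+/+ replicate 3. The r of -0.0 for *C1qa* is with the mean log2 level of the granulocyte genes, not with the sums plotted here.

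The ligands of CSF1R are made by neighbouring cells and were not called. *Csf1* was at 11.1 ± 1.72 FPKM (SD, n = 5) in Atf6+/+ and 10.8 ± 1.82 (SD, n = 6) in Atf6-/-, and its log2 fold change was -0.05. *Il34*, the tissue-restricted ligand, was at 15.3 ± 2.40 and 15.3 ± 1.26 FPKM, a log2 fold change of 0.01. Of the lineage factors, *Spi1* was at 11.9 ± 6.58 and 7.30 ± 2.92 FPKM, and *Irf8* at 4.59 and 3.71. Neither was called in the fit on genotype alone, with log2 fold changes of -0.61 and -0.33. With the marrow score as a covariate they were at 0.12 and 0.15. *Maf*, which marks long-lived tissue macrophages but is made by other cells too, was at 59.4 ± 3.11 and 65.4 ± 4.30 FPKM and was called higher by the unadjusted rule (log2 fold change 0.14, limma adjusted p = 0.466), but not with the marrow score, where it was at 0.07. In all, 1 of these 6 genes was called, and 2 after rescaling to TPM.

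Of the 10 partners of CX3CR1 and TREM2, 1 was called, and 2 after rescaling to TPM, when *Cx3cl1* was called higher at 0.17. *Cx3cl1*, fractalkine, was at 28.8 ± 3.81 and 31.0 ± 1.62 FPKM (log2 fold change 0.12), and *Apoe*, a lipid carrier that binds TREM2, at 1760 ± 273 and 1830 ± 312 (0.05). *Grn*, *Adam10*, *Adam17* and *Inpp5d* had log2 fold changes between -0.10 and 0.09. *Plcg2*, the phospholipase downstream of TYROBP and of the B cell receptor, was at 4.77 ± 1.29 and 3.50 ± 0.659 FPKM and was the 1 gene of the 10 called, as lower (log2 fold change -0.42, limma unadjusted p = 0.0277). With the marrow score as a covariate its log2 fold change was -0.07. The remaining adaptors and kinase were not called, with log2 fold changes of -0.51 for *Fcer1g*, -0.58 for *Syk* and -0.98 for *Hcst*. *Hcst* was at 0 FPKM in Atf6-/- replicate 5. With the marrow score these 3 were at 0.04, 0.20 and -0.20. With the replicate number as a block *Fcer1g* was called lower, at -0.52 (limma unadjusted p = 0.0299).

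Of 37 other complement genes listed, 31 were tested. By the unadjusted rule, which called 5.37% of all genes lower and 4.48% higher, 4 of the 31 were lower and 0 higher. Past the adjusted threshold there were 0 of the 31. The number called was 3 after rescaling to TPM or by median-of-ratios, and 1 when Atf6-/- replicate 5 was left out. None of the 4 was called once the marrow score entered the fit, and *C1s1*, at -0.41, was. Their median log2 fold change was -0.17, with 22 lower and 9 higher, or 20 and 11 after rescaling to TPM. The early components that act after C1q were present at moderate level: the proteases *C1ra* at 7.42 and 6.52 FPKM and *C1s1* at 4.85 and 4.28, *C2* at 9.85 and 10.1, *C4b*, which has a near copy, at 15.9 and 16.7, and *C3* at 12.7 and 11.1, in Atf6+/+ and Atf6-/- respectively. Their log2 fold changes lay between -0.28 and 0.05. *C1qa* was thus several times above *C1ra* and *C1s1* in FPKM, although these chains and proteases can be made by different cells. Of the alternative pathway, *Cfp*, properdin, was at 11.8 and 10.2 FPKM and *Cfb* at 0.988 and 0.768, and of the lectin pathway *Masp1* was at 3.45 and 3.67, *Masp2* at 0.286 and 0.372 and *Colec11* at 0.444 and 0.357. None of these was called. *Cfd*, the protease adipsin that is abundant in fat cells, was called lower (log2 fold change -2.20, limma unadjusted p = 0.0369), but 1 Atf6+/+ library, replicate 4, held 11.6 FPKM, and the remaining 10 libraries gave -1.25 with an unadjusted limma p of 0.0848.

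Most genes of the membrane attack complex were low. *Hc*, *C6*, *C8a* and *C9* were below the mean of 0.1 FPKM asked for testing, *C7* was at 0.292 and 0.383 FPKM, and *C8g* was at 1.5 and 1.16. Several regulators that protect host cells were abundant. *Clu*, clusterin, was at 852 and 941 FPKM, *Serping1*, the C1 inhibitor, at 131 and 123, and *Vtn* at 78.1 and 75.1, none of them called. *Cr1l* was at 16.6 and 16.5 FPKM, *Cd55* at 9.96 and 8.46, *Cd46* at 1.15 and 0.930 and *Cfi* at 0.904 and 0.895, also without a call. *Cd59a*, which blocks pore assembly, was at 63.2 ± 4.18 (SD, n = 5) and 57.9 ± 3.80 FPKM (SD, n = 6) and was called lower by a small margin (log2 fold change -0.13, limma unadjusted p = 0.0474). It was at -0.07 after rescaling to TPM (limma unadjusted p = 0.285) and was also not called with median-of-ratios scaling, a robust variance, the replicate block or the marrow score. With median-of-ratios and with the marrow score its log2 fold change hardly moved, at -0.11 and -0.12.

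Among the complement receptors, the 2 subunits of the integrin CR3 were called lower. *Itgam* was at 6.04 ± 3.98 and 3.07 ± 0.977 FPKM (log2 fold change -0.81), and *Itgb2* at 7.95 ± 5.85 and 3.71 ± 1.91 (-0.96). Both are carried by granulocytes and monocytes as well as by macrophages, and with the marrow score as a covariate their log2 fold changes were -0.18 and -0.14 and neither was called. *C3ar1* was at 1.24 and 1.04 FPKM, *C5ar1* at 1.57 and 1.10, *C5ar2* at 0.488 and 0.407, and *Itgax*, a subunit of CR4, at 0.438 and 0.310. The phagocytic receptors *Lrp1*, at 38.3 and 39.8 FPKM, and *Megf10*, at 4.85 and 5.27, are made by many other cells. *Vsig4*, the complement receptor of some tissue macrophages, averaged 0.018 and 0.192 FPKM, with 1.06 in Atf6-/- replicate 1.

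Other genes of tissue macrophages spread in both directions. Of 18 tested, 13 were lower and 5 higher in Atf6-/- with a median log2 fold change of -0.29. By the unadjusted rule 3 were called (16.7%, against 9.85% of all genes tested). *Ctss*, a lysosomal protease, was lower at 33.4 ± 4.60 (SD, n = 5) and 26.4 ± 6.11 FPKM (SD, n = 6), with a log2 fold change of -0.36. *Ms4a7* was lower at 2.84 ± 0.604 and 2.08 ± 0.454 (-0.43), and *Mertk*, a receptor for the clearance of dying cells, was higher at 13.3 ± 2.92 and 16.8 ± 2.21 (0.35). With the marrow score as a covariate *Ms4a7* was still called, at -0.67, while *Mertk* at 0.11 and *Ctss* at -0.38 were not, and *Folr2*, not called before, was called lower at -1.01. With the replicate block neither *Ms4a7*, at -0.41, nor *Ctss*, at -0.33, was called. The most abundant gene, *Lyz2*, which granulocytes also make, was at 186 ± 119 and 113 ± 49.5 FPKM (-0.63) and was not called.

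Genes that mark resting microglia in the brain, which cochlear macrophages partly share, had a median log2 fold change of -0.10 over 10 tested. *Olfml3* was at 47.1 and 45.5 FPKM, *Tmem119* at 13.7 and 12.2, and *Fcrls* at 7.49 and 6.37. *Sall1*, a transcription factor that other cochlear cells may make too, was the 1 gene called, as higher at 4.79 ± 1.75 and 6.80 ± 0.761 FPKM (log2 fold change 0.57), and was at 0.16 and not called with the marrow score. That fit called 2 other genes of the list lower, *Gpr34* at -0.52 and *Fcrls* at -0.34. Of 11 genes that phagocytes raise on activation, 2 (18.2%) were called lower, *Lpl* at 3.60 and 2.54 FPKM (-0.46) and *Clec7a* at 2.80 and 1.66 (-0.69). The median was -0.11. Of 9 inflammatory cytokine genes tested, *Il1b* was called lower at 1.34 ± 1.14 and 0.418 ± 0.182 FPKM (-1.19), and the median was -0.16. With the marrow score *Lpl* was at -0.08, *Clec7a* at -0.26 and *Il1b* at -0.63, and none of them was called. Over all these lists and those of other cell types, 36 of 159 genes tested were called by the unadjusted rule, 30 lower and 6 higher. The share over all genes tested was 9.85%, with 5.37% lower and 4.48% higher. Of the 36, 14 belong to the lists that make up the marrow score, so that their calls are bound to change once it enters the fit. Of the genes outside those lists 22 were called, and 9 with the score. Of all lists 3 genes were called in both fits (*Ms4a7*, *Tpsb2* and *Mcpt4*) and 9 only with the score. Of the 9, *Mpo* (1.87), *Elane* (1.80), *Vpreb1* (1.58), *Ly6c2* (1.27) and *H2-Ab1* (0.82) were higher, and *C1s1*, *Folr2*, *Gpr34* and *Fcrls* lower. *Mpo*, *Elane* and *Vpreb1* are genes of the score. Without it they were at -0.56, -0.50 and -0.15, so the score turned their direction.

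The 10 genes of the whole table whose pattern was most like the mean of the 9 members, by Pearson r over the 11 libraries after subtraction of the genotype means, among 13602 genes compared, are given as a description. They were *Cd74* (r = 0.974), *Sec61b* (0.973), *H2-Eb1* (0.967), *Rpl34* (0.959), *Ifitm3* (0.956), *Myl6* (0.955), *Tap2* (0.955), *H2-Aa* (0.951), *Ctss* (0.947) and *Tgm2* (0.943). *Cd74*, *H2-Eb1* and *H2-Aa* belong to the antigen presentation by MHC class II, and *Tap2* to that by class I. The points share their libraries, and *Sec61b* and *Rpl34* are genes of every cell.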

How the data were processed

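RNA of 5 Atf6+/+ and 6 Atf6-/- whole cochleae was sequenced from stranded mRNA libraries. Per the study's methods and the submitters' processing notes, the authors aligned reads with HISAT2 (2.0.4) to GRCm39 and quantified genes with RSEM (1.2.12 in the notes, another version in the methods). The deposited FPKM values, 1 column per library in 2 tables, were used as given. FPKM are scaled within a library, so abundant marrow transcripts can lower all others, which was not tested. Without read counts per library (the study's methods give only a common nominal depth) no counting interval was made.

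Samples were grouped by the genotype in their labels, and replicate numbers only name libraries. The sources used here do not say whether any mouse gave both its cochleae, so p-values measure only the spread between these samples. Genes averaging 0.1 FPKM or more were tested on log2(FPKM + 0.1), which understates changes of low genes, in limma (3.58.1, R 4.3.3, trended variance) with Benjamini-Hochberg adjustment over all genes tested. Single ratios were tested by exact two-sided permutation, and correlations by 100000 permutations (scipy 1.17.1). The limma step was tested on simulated data. The members and lists were chosen with earlier results of these data known. The genes named were all members, the genes of the complement, ligand and partner lists, from the other lists those called and at most 4 of the most abundant, and the 10 genes most like the members. Columns of the authors' own comparisons were not used. Alternatives were other pseudocounts, filters, scalings, a robust variance, a marrow score covariate, a replicate block, and each library left out. Leaving out Atf6+/+ replicate 3 and Atf6-/- replicate 5 together was added after the data were seen. RefSeq promoters are of GRCm38.p6, matched by symbol, and no coordinates were moved between builds. Some genes of the lists are counted but not reported here by name.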

Additional observations from a re-analysis of the deposited data

Results flagged for a closer look

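Among the members and the related genes and sums, 19 of 128 combinations of a value and a genotype had 1 library far from the others by Dixon's criterion. Of these, 4 were among the 18 of the members. Chance alone gives about 1 in 20 for independent values. These values share their libraries, and most of the member flags were Atf6-/- replicate 5, so the counts do not measure an excess. *Csf1r* was at 20.03 FPKM in Atf6+/+ replicate 1, with the other libraries of the genotype at 24.3 to 25.5. Atf6-/- replicate 5 was low for *Csf1r* at 15.7 FPKM (others 22.2 to 24.5), for *Cx3cr1* at 5.67 (7.54 to 8.42), for *Adgre1* at 1.92 (2.6 to 2.91), for the ligand gene *Csf1* at 7.26 (10.6 to 12.2) and for the adaptor gene *Hcst* at 0 (0.66 to 0.83). *Il34*, the other ligand of CSF1R, was at 11.1 FPKM in Atf6+/+ replicate 3, with the rest at 15.5 to 17.0.

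Of the complement genes, *Cfd* was at 11.6 FPKM in Atf6+/+ replicate 4 and at 0.59 in Atf6-/- replicate 6, *C8g* at 1.97 in Atf6+/+ replicate 4, *Cfb* at 1.71 and *Vsig4* at 1.06 in Atf6-/- replicate 1. *Itgam* was at 12.97 FPKM in Atf6+/+ replicate 3 and at 4.91 in Atf6-/- replicate 4, and *Itgb2* at 7.26 in Atf6-/- replicate 4. The same 2 libraries had the highest sums of monocyte genes in their genotype, at 163 FPKM in Atf6+/+ replicate 3 and 109 in Atf6-/- replicate 4. The sum of granulocyte genes was 1201 FPKM in Atf6-/- replicate 4, and that of erythroid genes was 46394 in Atf6+/+ replicate 5.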

How the results depend on the processing

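No member had an adjusted p under 0.05 in any alternative run. By the unadjusted rule 1 member was called, and 0 with the marrow score covariate, without a filter on low values, after rescaling to TPM, with a robust variance, and without Atf6+/+ replicate 3 and Atf6-/- replicate 5 together. With 1 library left out at a time this count ranged from 0 to 2, the 2 without Atf6+/+ replicate 1. The fitted value of *Tyrobp* stayed below 0 in all 21 alternatives, from -0.89 to -0.12, with a limma adjusted p of 0.36 to 0.992. *Cx3cr1* changed sign, at -0.01 with the marrow score and -0.05 without Atf6+/+ replicate 3, and was at 0.14 without Atf6-/- replicate 5. Of the genes in the related lists, 36 were called, 12 with the marrow score (3 of them among the 36, of which 14 are part of the score), 22 without the 2 libraries named above, and 17 to 46 with 1 library left out (17 without Atf6+/+ replicate 4, 19 without replicate 3). The causes were not tested. Over all genes the unadjusted rule called 868 lower and 724 higher, with the marrow score 515 lower and 314 higher, by median-of-ratios 762 lower and 874 higher, and after rescaling to TPM 460 lower and 1396 higher.

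Replicate numbers did not pair the libraries: same-numbered libraries correlated at -0.21 to 0.119 in their deviations from the genotype means, and 1 of 5 correlated best with its own number. With the number as a replicate block 1 member was called by the unadjusted rule and 40 genes of the related lists, and 4 genes passed the adjusted threshold in place of 11. Read counts per library are not in the tables used, so the counting error of the low genes *Adgre1* and *Aif1* was not computed.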

Other observations

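Genes of MHC class II serve macrophages and dendritic cells to present antigen. Of 7 tested, 5 were higher and 2 lower in Atf6-/-, with a median log2 fold change of 0.41 and 0 called by the unadjusted rule, or 3 called higher after rescaling to TPM and 1 (*H2-Ab1*) with the marrow score. *Cd74*, the invariant chain, was at 111 ± 32.4 FPKM (SD, n = 5) in Atf6+/+ and 149 ± 44.2 (SD, n = 6) in Atf6-/-. *H2-Aa* was at 41.0 ± 9.62 and 61.2 ± 20.5 FPKM, *H2-Ab1* at 34.1 and 50.8, and *H2-Eb1* at 14.3 ± 4.58 and 22.2 ± 7.80. *Ciita*, their activator, had a log2 fold change of 0.41, and the peptide loading genes *H2-DMa* and *H2-DMb1* had -0.16 and -0.01.

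Their ratios to *C1qa* within a library were computed after the values were seen, for all 7 genes, and are given as a description with no test. *Cd74* over *C1qa* was 1.71, 2.05, 3.01, 2.45 and 2.1 in Atf6+/+ replicates 1 to 5 and 2.61, 3.4 and 4.14 as the lowest, median and highest in Atf6-/-, so that only Atf6+/+ replicate 3 reached into the Atf6-/- range. The log2 difference was 0.61 for *Cd74*, 0.73 for *H2-Aa*, 0.76 for *H2-Ab1*, 0.80 for *H2-Eb1* and 0.74 for *Ciita*, and 0.04 for *H2-DMa* and 0.19 for *H2-DMb1*. All of these ratios share *C1qa* and are not independent of each other.

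Among mast cell genes, 3 of 5 (60.0%) were called lower by the unadjusted rule, *Cpa3*, *Mcpt4* and *Tpsb2*, against 5.37% of all genes tested. *Tpsb2*, a mast cell tryptase, was at 0.636 ± 0.0958 FPKM (SD, n = 5) in Atf6+/+ and 0.225 ± 0.101 (SD, n = 6) in Atf6-/-, with no overlap (log2 fold change -1.23, limma adjusted p = 0.0882), and its log2 fold change was -1.14 with the marrow score as a covariate. With that score *Mcpt4* was at -1.70 and *Cpa3* at -0.41, the latter no longer called, and *Mcpt4* was not called with the replicate block.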
